A study of Homo sapiens with 3 samples.

Results

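The regions described here are the p300/CBP peaks around 8 genes of pericellular proteolysis: PLAU, PLAUR and SERPINE2 of the urokinase system, the metalloproteases MMP1, MMP3 and MMP14, and the inhibitors TIMP2 and TIMP3. A peak was taken when its centre lay within 100 kb of the transcription start site (TSS) of one of these genes on hg19, and a peak lying in several windows was counted once. This rule found 75 of 82901 peaks in cells given a control siRNA (siCTL) and 56 of 39320 peaks in cells given siRNAs against Fra-1 (siFra-1). Closest to the limit, the last peaks inside lay 99.0 kb from PLAUR in siCTL and 96.5 kb from PLAU in siFra-1. The first outside lay 101 kb from MMP3 and 102 kb from PLAUR, and all 4 were 100 bp wide.

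Both groups were MDA-MB-231, an established human breast cancer line labelled triple negative and basal B, transfected with 4.5 nM of siRNA and fixed after 72 h for 7 min. The control siRNA was a commercial negative control, and siFra-1 was a mix of 3 siRNAs against the AP-1 subunit Fra-1, so effects of the single siRNAs cannot be told apart. An anti-p300/CBP antibody was used for ChIP-seq, and replicate precipitations had been pooled into 1 library per condition, so no replicate spread is available for anything below. The third sample, input DNA, was not analysed here. Each list holds only the chromosome, start and end of its peaks, with no height or read number, so depth is unknown and the loss of Fra-1 itself could not be checked from them. Intervals below are at 95% and account for counting error alone. As a check of the label, the basal markers VIM, CD44, AXL and CAV1 had 7 siCTL and 10 siFra-1 peaks of 250 bp and over within 100 kb, with at least 1 at each of the 4. The luminal markers ESR1, GATA3, FOXA1 and CDH1 had 0 siCTL and 5 siFra-1 peaks of this width, at 2 of the 4 genes. CDH1 alone held 4 of these siFra-1 peaks. Of all protein-coding genes, 68.2% had no peak of this width in either list, so the marker counts do not settle the label.

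Urokinase, the product of PLAU, is a secreted protease that turns plasminogen into plasmin while held at the cell surface by its receptor, the product of PLAUR. Serpins restrain it, and plasmin in turn degrades matrix proteins and activates secreted metalloproteases, which TIMP proteins inhibit. Several of these genes are textbook targets of AP-1, a dimer of Fos and Jun family proteins that binds the sequence TGAGTCA or its complement TGACTCA, and p300 and CBP are coactivators that acetylate histones at active enhancers and promoters. An upstream enhancer of PLAU with sites for AP-1 and ETS factors, and the AP-1 sites of the MMP1 and MMP3 promoters, are among the classic examples.

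The regions in which both lists placed a peak are shown first, because they hold most of the wide peaks (250 bp and over) of these genes. Of 10 such sites, 9 held an AP-1 motif on either strand within the span of their peaks, and for 8 of them the GRCh37 sequence around it is printed below with the motif in capitals, on the forward strand. Distances are those of the middle of the site from the gene's TSS, with negative values upstream. The sites beyond the widest peak of PLAU, PLAUR and MMP14 were chosen for printing after their values were seen.
PLAU -21.3 kb, chr10:75647629-75647748: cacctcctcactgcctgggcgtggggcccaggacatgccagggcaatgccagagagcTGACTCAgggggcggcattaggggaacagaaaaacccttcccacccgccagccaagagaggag
PLAU -9.66 kb, chr10:75659234-75659353: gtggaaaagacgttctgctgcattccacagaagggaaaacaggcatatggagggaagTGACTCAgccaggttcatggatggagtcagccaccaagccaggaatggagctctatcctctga
PLAU -2.26 kb, chr10:75666932-75667051: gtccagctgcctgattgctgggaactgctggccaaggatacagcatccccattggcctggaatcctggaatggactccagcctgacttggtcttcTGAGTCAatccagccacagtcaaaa
PLAU -0.009 kb, chr10:75669132-75669251: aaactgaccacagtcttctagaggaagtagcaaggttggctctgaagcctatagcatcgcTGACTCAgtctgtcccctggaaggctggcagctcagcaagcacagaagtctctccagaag
PLAUR -94.9 kb, chr19:44269521-44269640: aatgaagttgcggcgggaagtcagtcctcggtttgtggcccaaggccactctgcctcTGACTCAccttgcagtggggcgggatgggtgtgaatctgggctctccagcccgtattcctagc
MMP14 14.9 kb, chr14:23320647-23320766: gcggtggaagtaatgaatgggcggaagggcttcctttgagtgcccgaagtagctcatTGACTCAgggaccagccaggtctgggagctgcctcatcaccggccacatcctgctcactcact
TIMP2 41.8 kb, chr17:76879444-76879563: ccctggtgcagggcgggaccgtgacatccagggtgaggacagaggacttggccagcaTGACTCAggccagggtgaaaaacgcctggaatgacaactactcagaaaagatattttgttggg
TIMP2 -8.28 kb, chr17:76929610-76929729: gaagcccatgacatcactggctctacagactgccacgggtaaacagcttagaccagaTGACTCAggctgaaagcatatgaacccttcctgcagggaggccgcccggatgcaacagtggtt

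Over the 8 loci together, the peak number in siFra-1 was 0.747 times that in siCTL (0.519 to 1.07), where all peaks of the lists gave 0.474. The Poisson intervals were 59.0 to 94.0 for the 75 siCTL peaks and 42.3 to 72.7 for the 56 siFra-1 peaks. The smallest peaks, of 100 bp, numbered 56 (siCTL) and 36 (siFra-1), which is 0.643 times as many (0.411 to 0.995), and 0.398 times as many over all peaks of that width. Peaks of 150 and 200 bp numbered 8 in each list. Peaks of 250 bp and over, called wide here, numbered 11 (siCTL) and 12 (siFra-1), which is 1.09 times as many (0.441 to 2.73), and 1.64 times as many over all wide peaks. The siCTL peaks covered 12 kb together and the siFra-1 peaks 10.7 kb. Thus the 2 lists differed at these genes mainly in the smallest peaks.

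**Figure D1:**
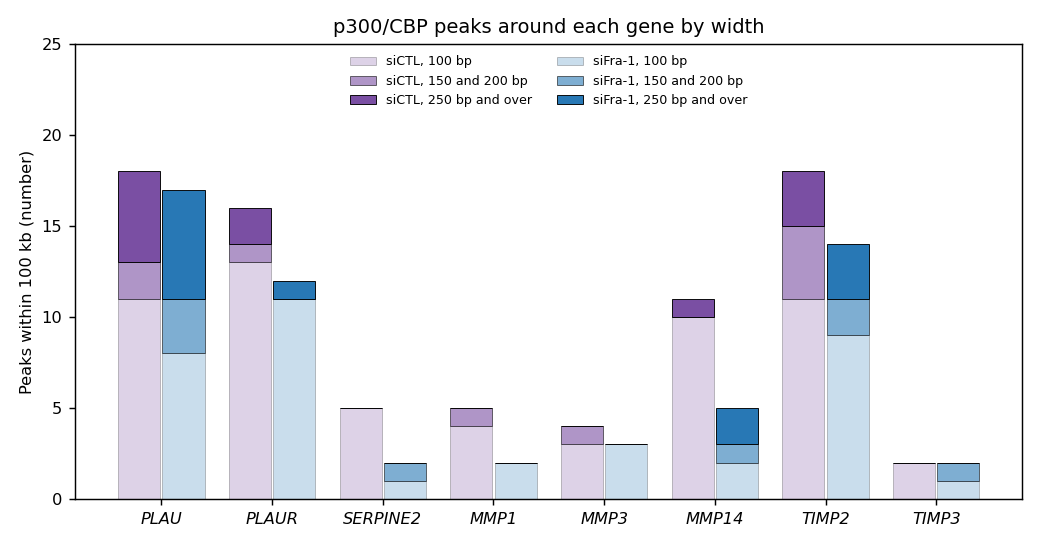
Number of peaks within 100 kb of the TSS of each gene (vertical axis), with siCTL in purple and siFra-1 in blue and darker shades for wider peaks; MMP1 and MMP3 share part of their windows. PLAU and TIMP2 had 18 siCTL peaks each, and SERPINE2, MMP1, MMP3 and TIMP3 had no peak of 250 bp or over in either list.

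The genes fell into a group of 4 with wide peaks and a group of 4 without. PLAU, PLAUR, MMP14 and TIMP2 had 18, 16, 11 and 18 siCTL peaks and 17, 12, 5 and 14 siFra-1 peaks. SERPINE2, MMP1, MMP3 and TIMP3 had 5, 5, 4 and 2 siCTL peaks and 2, 2, 3 and 2 siFra-1 peaks, none of them wide in either list. Having no wide peak in either list was also the state of 68.2% of the 20163 protein-coding genes. The siFra-1 number was at most 0.5 times the siCTL number at SERPINE2, MMP1 and MMP14, that is 3 of 8 genes, where 64.5% of the 19246 coding genes with a peak met this limit. It was at least 2 times the siCTL number at 0 of 8, where 3.97% of coding genes with a peak met it. The median over the 8 genes was 8 siCTL and 4 siFra-1 peaks with a median ratio of 0.75, where all coding genes had medians of 6 and 2 peaks and a median ratio of 0.4. At single genes the counts were too small for their ratios to be told from 1, with the interval running from 0.457 to 1.94 at PLAU and from 0.0381 to 2.44 at MMP1.

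**Figure D2:**
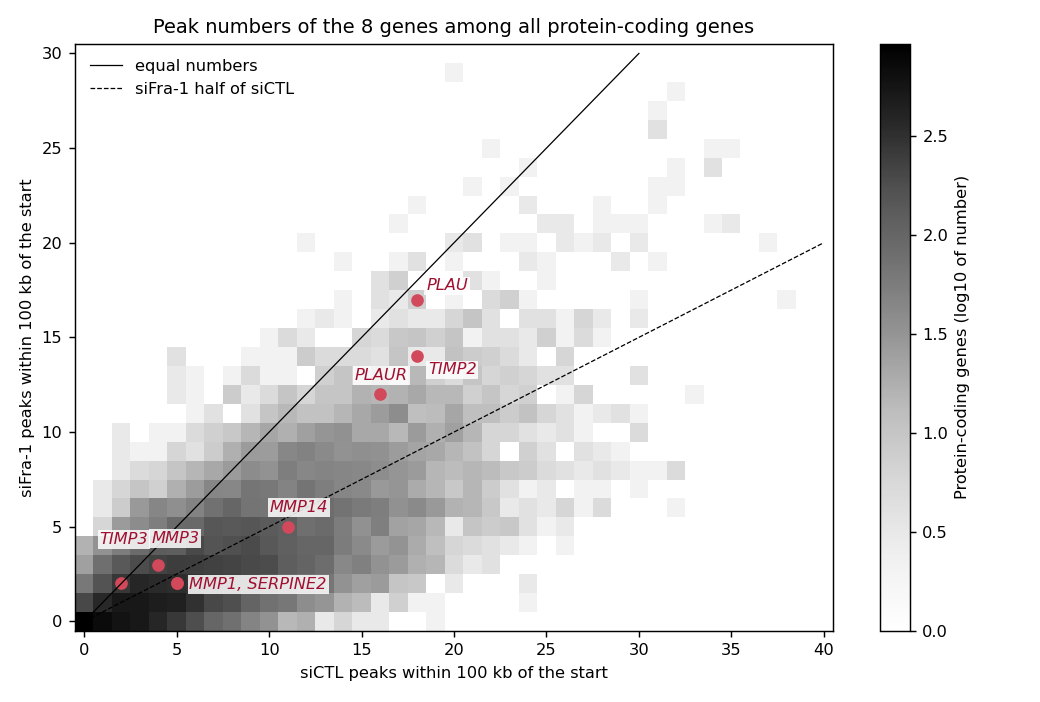
Number of siFra-1 peaks (vertical axis) against siCTL peaks (horizontal axis) within 100 kb of the TSS, with the 8 genes as red points over all protein-coding genes, whose number per cell is shaded on a log10 scale; 17 genes with more than 40 siCTL or 30 siFra-1 peaks are not drawn. PLAU, with 18 and 17 peaks, lies just under the line of equal numbers, and MMP14, SERPINE2 and MMP1 lie under the line of 0.5 times.

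Sharing followed width. A siFra-1 peak overlapped 12 of 75 siCTL peaks by at least 1 bp (16.0%, Wilson 9.40 to 25.9), where the share over all siCTL peaks was 9.56%. In the other direction, 11 of 56 siFra-1 peaks were overlapped (19.6%, 11.3 to 31.8), where the share over all siFra-1 peaks was 19.1%. Of the wide siCTL peaks, 10 of 11 were shared (90.9%, 62.3 to 98.4), where the share over all wide siCTL peaks was 85%. Of the wide siFra-1 peaks it was 10 of 12 (83.3%, 55.2 to 95.3), where the share over all wide siFra-1 peaks was 68.2%. Of the 100 bp peaks, 1 of 56 in siCTL (1.79%) and 1 of 36 in siFra-1 (2.78%) were shared, where all peaks of that width gave 3.79% and 6.56%. A shared siCTL peak was found at 4 of 8 genes, PLAU, PLAUR, MMP14 and TIMP2, and at 32.7% of all coding genes. Of the unshared peaks, 14 of 63 in siCTL and 12 of 45 in siFra-1 lay within 1 kb of a peak of the other list, and 3 in each list abutted one with no gap. The same shares over all unshared peaks were not computed, so these counts cannot be called particular to the 8 loci.

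**Figure D3:**
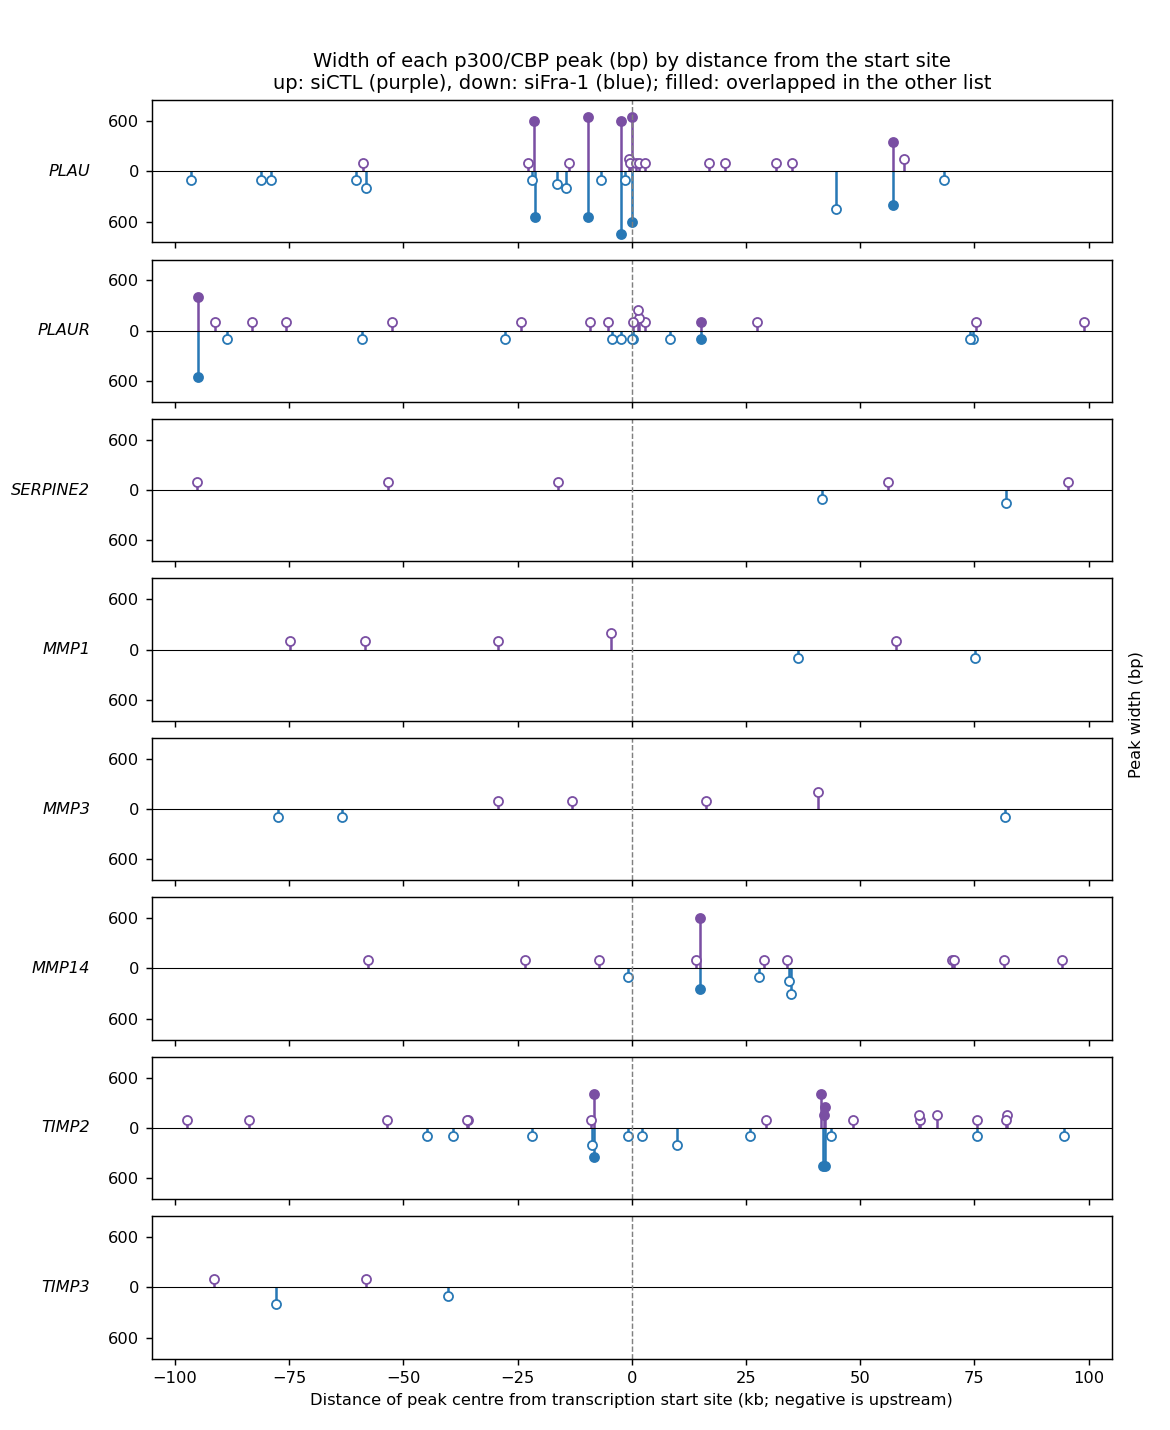
Width of each peak in bp (vertical axis, siCTL upward and siFra-1 downward) against the distance of its centre from the TSS in kb (horizontal axis, negative upstream), with filled circles for peaks overlapped in the other list. Filled circles stand at PLAU, PLAUR, MMP14 and TIMP2, and the tall ones at PLAU gather between -21.3 kb and the TSS.

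PLAU, the gene of the protease itself, had the most shared width of the 8. Its 18 siCTL peaks comprised 5 wide peaks, all 5 overlapped in siFra-1, and its 17 siFra-1 peaks comprised 6 wide peaks, of which 5 were overlapped. At least 5 shared wide siCTL peaks within 100 kb were found at 130 of 20163 coding genes, or 0.645%, and 99.2% of coding genes had fewer wide siCTL peaks than PLAU. The limit of 5 is the count of PLAU itself, the highest of the 8 genes, so this share is no test of PLAU. The 13 narrower siCTL peaks and the 11 narrower siFra-1 peaks of this window included no shared peak. Most of these were 100 bp wide, and over the whole lists few such peaks were shared, as given above, while those of 150 and 200 bp were shared in 21.7% of siCTL and 28.1% of siFra-1 cases. By chromosome mean, 200 kb of chromosome 10 held 9.02 siCTL and 4.17 siFra-1 peaks, against the 18 and 17 counted here.

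The first shared site of PLAU spanned the 5′ end of the gene record (chr10:75668602-75669251 in siCTL). It was 650 bp wide in siCTL and 600 bp in siFra-1 with the same start, and 0.923 of the joint span was common to both. Because the gene record begins 1955 bp before the start of the representative transcript, the middle of the site lay at -1.96 kb from that start, in the region where the classic enhancer is placed. It held TGACTCA at 75669192-75669198, 268.5 bp from the centre of the siCTL peak, which 58.75% of siCTL peaks of 650 bp hold somewhere. It also held 2 ETS cores (AGGAAG), 1 match to the NF-kB consensus and 1 TGAATCA at 75669000-75669006, a sequence 1 base away from the AP-1 motif. Beside an AGGAAA stretch close to the centre of the peak lay TGAAGTCA, an AP-1-like sequence with 1 more base, which 7.5% of siCTL peaks of 650 bp and 4.91% of siFra-1 peaks of 600 bp hold. TGAATCA and TGAAGTCA were looked for after this sequence had been read. The 60 bases up to the gene-record start, with TGAAGTCA in capitals, are these.
PLAU upstream stretch, chr10:75668875-75668934: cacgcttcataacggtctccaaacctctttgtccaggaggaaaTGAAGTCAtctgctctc

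The second site, at -2.26 kb (chr10:75666302-75667051), was 600 bp wide in siCTL and 750 bp in siFra-1, again with the same start. The 150 bp added in siFra-1 lay at the end nearer to the gene, and they contained the TGAGTCA printed above, at 75667027-75667033, which the siCTL peak did not reach. Both peaks held the same 5 ETS cores. Further upstream, the site at -9.66 kb (chr10:75658952-75659601) was 650 bp in siCTL and 550 bp in siFra-1 with the same end, and TGACTCA lay 17.5 bp from the centre of the siCTL peak. The site at -21.3 kb (chr10:75647302-75647951) was 600 bp in siCTL and 550 bp in siFra-1, and its TGACTCA lay 87.5 and 12.5 bp from the centres. Hence the 4 sites upstream and at the start of PLAU were called in both conditions at widths of 550 bp and over. Such a run, 4 or more wide peaks within 25 kb counted from the first, began at 5.55% of all wide siCTL peaks and 9.73% of all wide siFra-1 peaks. It occurred once in each list among the 8 windows, at PLAU, and the span was chosen after the positions were seen.

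**Figure D4:**
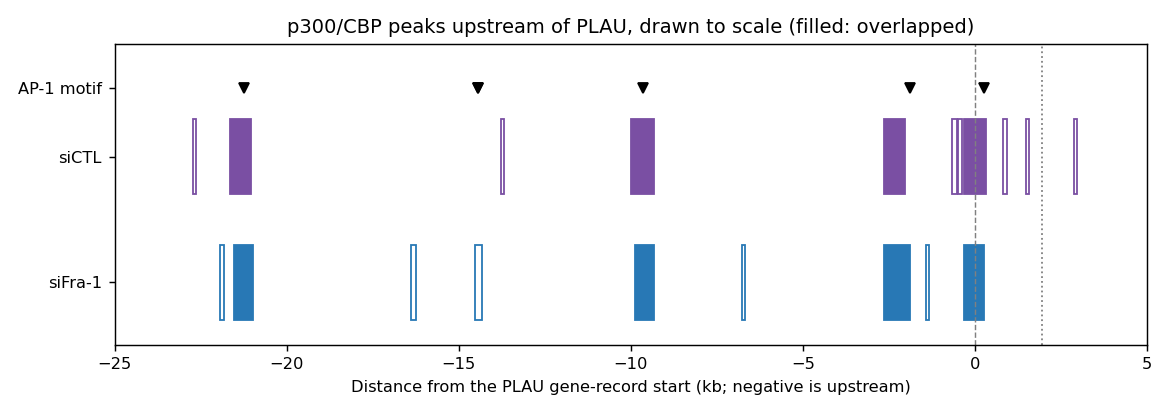
Peaks between -25 and 5 kb of the PLAU gene-record start, drawn to scale on the horizontal axis (kb), with siCTL above and siFra-1 below, filled where overlapped, and AP-1 motifs in peaks as triangles; the dashed and dotted lines mark the gene-record and representative starts. The 4 filled blocks recur in both lists, and the triangle at about -14.4 kb lies in a peak of siFra-1 alone.

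Between these sites the lists differed. A 200 bp siFra-1 peak at -14.4 kb (chr10:75654402-75654601) held both TGAGTCA and TGACTCA, 15.5 and 5.5 bp from its centre, and no siCTL peak lay nearer than 550 bp. Around the start, siCTL had 5 unshared peaks of 100 or 150 bp within 3 kb, at -0.609, -0.434, 0.866, 1.52 and 2.92 kb, and siFra-1 had 1 of 100 bp at -1.38 kb. Downstream, the fifth shared site at 57.2 kb was 350 bp in siCTL and 400 bp in siFra-1. Its nearest coding TSS was that of VCL, at 28.9 kb, so the window assigns it to PLAU by distance only. The only unshared wide peak of the window was a siFra-1 peak of 450 bp at 44.7 kb (chr10:75713452-75713901), with TGAGTCA and 9500 bp from the nearest siCTL peak. That sequence is shown for comparison with the shared sites.
PLAU 44.7 kb, chr10:75713459-75713578: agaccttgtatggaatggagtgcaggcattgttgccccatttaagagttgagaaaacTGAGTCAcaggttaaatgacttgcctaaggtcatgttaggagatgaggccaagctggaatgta

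Around PLAUR, the gene of the urokinase receptor, 16 siCTL and 12 siFra-1 peaks were found, and 2 sites were shared. The wide one (chr19:44269352-44269901) lay at -94.9 kb, 10.5 kb from the TSS of SMG9, and was 400 bp in siCTL and 550 bp in siFra-1 with the same start. Its TGACTCA lay 29.5 bp from the centre of the siCTL peak. The other, in PLAUR at 15.1 kb (chr19:44159502-44159651), was a pair of 100 bp peaks with 50 bp in common and no AP-1 motif. The peaks nearest to the start did not overlap between the lists. In siCTL a 250 bp peak without AP-1 motif stood in an intron at 1.27 kb (chr19:44173302-44173551), and a 100 bp peak at 0.248 kb. In siFra-1 the nearest peaks were 2 of 100 bp, at 0.098 and 0.348 kb. The former lay 50 bp from the siCTL peak at 0.248 kb, and the latter abutted that siCTL peak without a shared base. The nearest wide siFra-1 peak was the one at 94.9 kb.

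SERPINE2 encodes protease nexin-1, a serpin that inhibits urokinase and thrombin. Its window held 5 siCTL peaks of 100 bp, at -95.1, -53.4, -16.1, 56.1 and 95.5 kb, and siFra-1 peaks of 100 bp at 41.6 kb and 150 bp at 81.9 kb, the latter 0.004 kb from the TSS of MRPL44. None was shared and none held an AP-1 motif. Chromosome 2 held 4.19 siCTL and 2.04 siFra-1 peaks per 200 kb, close to the counts of this window. In siCTL the nearest wide peak was 313.6 kb away, and in siFra-1 it was 178.0 kb away.

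MMP1, the interstitial collagenase, and MMP3, stromelysin-1, lie side by side on chromosome 11 with other metalloprotease genes. Their joint window held 5 siCTL and 4 siFra-1 peaks, none shared, none wide and none with an AP-1 motif. The siCTL peak nearest to MMP1, 200 bp wide at -4.61 kb (chr11:102673402-102673601) and in an intron of the pseudogene WTAPP1, was the widest of the 9, and the nearest siFra-1 peak lay 40750 bp from it. The siFra-1 peak nearest to MMP1 was 100 bp at 36.3 kb. For MMP3 the nearest peaks were 100 bp in siCTL at -13.0 kb and 100 bp in siFra-1 at -63.4 kb. Neither list placed a peak at the MMP1 or MMP3 promoter, and in siCTL the wide peak nearest to MMP1 was 790.4 kb away, in siFra-1 572.2 kb. Chromosome 11 held 7.46 siCTL and 3.33 siFra-1 peaks per 200 kb, the length of a single window, whereas the joint window is longer. A peak missing from a list may have fallen short of the calling threshold, so this gives no level of p300/CBP at these promoters.

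MMP14 encodes a membrane-bound metalloprotease that activates proMMP2 at the cell surface. Its 11 siCTL peaks and 5 siFra-1 peaks included 1 shared site, at 14.9 kb from the TSS and past the 3′ end of the gene (chr14:23320402-23321001). This site showed the largest difference in width among the shared sites of the 8 loci, from 600 bp in siCTL to 250 bp in siFra-1, and the siFra-1 peak lay wholly inside the siCTL peak. The TGACTCA stood 5.5 bp from the centre of the siCTL peak and remained in the siFra-1 peak, 69.5 bp from its centre. An ETS core stood 23 bp from the centre of the siCTL peak, and 75.4% of siCTL peaks of 600 bp hold such a core. The other siCTL peaks were all 100 bp and unshared. In siFra-1 an unshared peak of 300 bp at 34.8 kb (chr14:23340452-23340751) held no AP-1 motif and lay 0.348 kb from the TSS of LRP10. The peak nearest to the MMP14 start was 100 bp in siFra-1 at -0.918 kb and 100 bp in siCTL at -7.27 kb.

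TIMP2 encodes an inhibitor that binds metalloproteases and also takes part in the activation of proMMP2 by MMP14. Its window held 18 siCTL and 14 siFra-1 peaks, 3 of them wide in each list. An intronic site at 41.8 kb (chr17:76879002-76880251) was broken differently in the 2 lists: siCTL had peaks of 250, 150 and 400 bp, 800 bp in all, and siFra-1 had 2 peaks of 450 bp, 900 bp in all, with 450 bp in common. Its TGACTCA at 76879501-76879507 lay inside the 150 bp siCTL peak, and its first base fell just before the printed start of the second siFra-1 peak, at 76879502. As the offset of the deposited starts is uncertain by 1 bp, this motif cannot be placed in or out of that peak. The site at -8.28 kb (chr17:76929552-76929951) was 400 bp in siCTL and 350 bp in siFra-1 with the same end, and its TGACTCA lay 81.5 bp from the centre of the siCTL peak. It was the wide peak nearest to the TIMP2 start in both lists. Closer to the start, siFra-1 alone had 100 bp peaks, at -0.932 and 2.27 kb, while this site was also the siCTL peak nearest to the start.

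TIMP3, an inhibitor that stays bound to the matrix, lies within an intron of SYN3. Its window held 2 siCTL peaks of 100 bp, at -91.4 and -58.2 kb, and siFra-1 peaks of 200 bp at -77.9 kb and 100 bp at -40.2 kb. None was shared or held an AP-1 motif, and chromosome 22 held 2.99 siCTL and 1.5 siFra-1 peaks per 200 kb. With SERPINE2, MMP1 and MMP3, TIMP3 thus had only narrow, unshared peaks in these lists.

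The widths of the shared sites were compared next. In 8 cases a single wide siCTL peak met a single wide siFra-1 peak, and siFra-1 was the wider in 3 (PLAU at -2.26 and 57.2 kb, PLAUR at -94.9 kb) and the narrower in 5, with none of equal width. Over all 2143 such pairs in the lists, siFra-1 was wider in 60.1%, narrower in 23.8% and equal in 16.1%. The median difference was -50 bp at the 8 pairs and 50 bp over all pairs, and the bins of the calls are 50 bp. The median share of the joint span common to both peaks was 0.823 at the 8 pairs, from 0.417 at MMP14 to 0.923 at the PLAU start, and 0.75 over all pairs. With 8 pairs, 3 of them wider, no difference from the whole can be claimed.

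**Figure D5:**
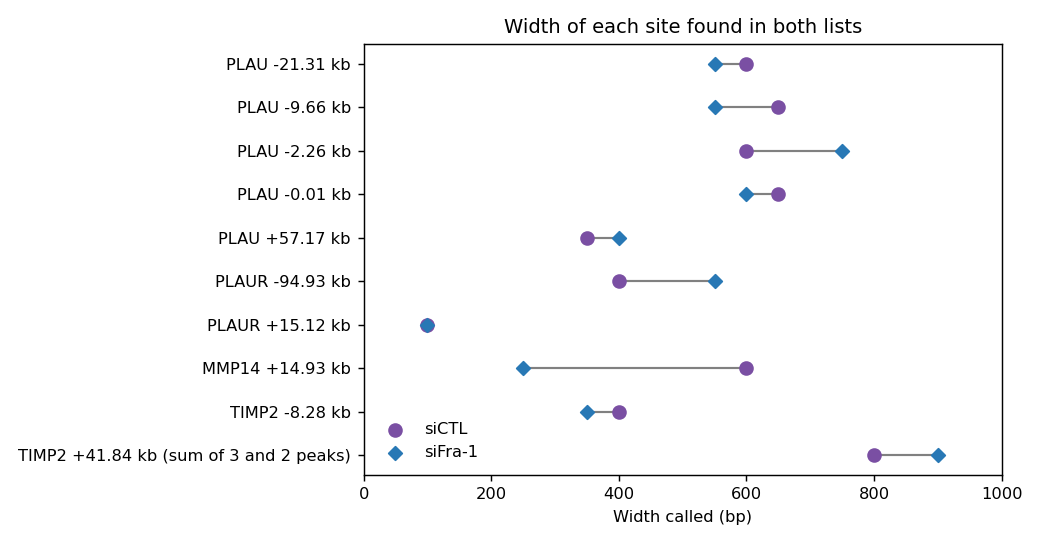
Width in bp (horizontal axis) called in siCTL (purple circles) and siFra-1 (blue diamonds) at each of the 10 sites found in both lists, named by gene and distance from the TSS. All but MMP14 at 14.9 kb, which went from 600 to 250 bp, differed by 150 bp or less.

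The AP-1 motif was more frequent in the peaks of these loci than over each whole list, but these shares are not matched for width. Wide peaks made up 11 of 75 siCTL and 12 of 56 siFra-1 peaks here, against 3655 of 82901 and 5989 of 39320. In siCTL it occurred in 10 of 75 peaks (13.3%, 7.41 to 22.8), where all peaks gave 4.63%. In siFra-1 the count was 10 of 56 (17.9%, 10.0 to 29.8), where all peaks gave 8.43%. The peaks of PLAU made up 4 and 7 of these. Without the PLAU window the shares were 10.5% in siCTL and 7.69% in siFra-1, so that the siFra-1 share then lay below that of all siFra-1 peaks. The siFra-1 counts of the whole peaks leave out the TIMP2 motif that could not be placed in or out of its siFra-1 peak. Counting it would raise them, so the side on which the siFra-1 share without PLAU lies is not settled. In 200 bp centred on each peak, the motif was found for 10 of 75 siCTL peaks and 7 of 56 siFra-1 peaks (12.5%, 6.19 to 23.6). For narrower peaks this stretch reaches past the peak ends, and the same share over all peaks was not computed. Of the 100 bp peaks, 2 of 56 in siCTL (3.57%) and 0 of 36 in siFra-1 held the motif, where all gave 2.25% and 2.77%. Of the wide siCTL peaks, 7 of 11 held the motif (63.6%, 35.4 to 84.8), where all wide siCTL peaks gave 41.6%. Of the wide siFra-1 peaks, 9 of 12 did (75%, 46.8 to 91.1), where all gave 32.5%. These shares are not matched for width either. Median widths were 400 bp (siCTL) and 450 bp (siFra-1) here, and 350 and 400 bp over all wide peaks. Most of these wide peaks are also the same sites counted in both lists. At PLAU it was in 4 of 5 wide siCTL and 6 of 6 wide siFra-1 peaks, and at the other genes in 3 of 6 in each list. The median distance from the peak centre was 29.5 bp in siCTL and 69.5 bp in siFra-1, against 53.5 and 57.5 bp over all wide peaks with the motif.

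Other motifs were counted in the same wide peaks. ETS cores were in 7 of 11 siCTL and 9 of 12 siFra-1 wide peaks, where all wide peaks gave 49.3% and 50.5%. The TEAD sequence GGAATG was in 4 and 7, where all wide peaks gave 41.4% and 45.0%, and the RUNX sequence TGTGGT in 4 and 7, where they gave 35.0% and 40.2%. The NF-kB consensus was in 1 of each, where all wide peaks gave 6.46% and 6.91%, and the C/EBP sequence TTGCNNAA in 2 of each, where they gave 19.7% and 25.0%. The CRE TGACGTCA was in none, and was rare over all wide peaks, at 0.711% and 0.651%. Wide peaks of these loci had a median GC content of 56.25% in siCTL and 55.05% in siFra-1, where all wide peaks had 47.6% and 46.4%, and the part of base composition in the motif counts was not tested. By position, 10 siCTL peaks of the 8 loci were centred in exons, 29 in introns and 36 between genes, and in siFra-1 8, 17 and 31. The same split over all peaks was not computed, so it cannot be called particular to these loci.

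Of 25 other genes of the pathway, 24 had a peak within 100 kb, and TIMP1 had none in either list. The siFra-1 number was at most 0.5 times the siCTL number at 15 of the 24 and at least 2 times at none. Of all coding genes with a peak, 64.5% and 3.97% met these limits. Together they had 206 peaks with siCTL and 99 with siFra-1, which is 0.481 times as many (0.374 to 0.614), where all peaks gave 0.474. Their wide peaks numbered 16 and 24, where siFra-1 had 1.64 times as many over all wide peaks. The windows of 4 of them touch those of MMP1 and MMP3. Wide peaks were found at 10 of the 25 genes, where 68.2% of all coding genes had none in either list. Among the 10 were PLAT, LRP1, MMP9, MMP16, MMP17, MMP24, MMP25, TIMP4 and BSG. MMP24, a membrane-type metalloprotease, had the most, with 6 in each list. PLAT, the tissue-type plasminogen activator, had 1 in siCTL and 4 in siFra-1. TIMP4 had 2 and 5, BSG, an inducer of metalloproteases, 1 and 3, MMP17 0 and 2, LRP1, an endocytic receptor, 0 and 1, and MMP16 1 and 0. MMP9, a gelatinase, and MMP25 had equal numbers in both lists, 1 and 2.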

How the data were processed

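ChIP-seq of p300/CBP was done in 2 conditions with 1 library each. The authors deposited, per condition, positions of peaks on hg19 (chromosome, start and end), with no score. Per their methods, reads were aligned with BWA-backtrack, whereas the submitters' processing notes name Bowtie2, and the signal was made with PASHA in bins of 50 bp, scaled and background-subtracted. Runs above a threshold of 25 were then called with the Integrated Genome Browser, with a maximal gap of 50 bp and a minimal run of 50 bp. Scaling, subtraction and a fixed threshold act on peak number and width in the same way as occupancy does, so library and condition cannot be told apart.

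Positions were taken as BED coordinates and 1 was added to each start, so printed starts may be 1 bp off. Genes were those of GENCODE 44 lifted to GRCh37, and the TSS was the 5′ end of the gene record. All 8 genes matched. Sharing meant at least 1 bp. AP-1, CRE, ETS (AGGAAG), TEAD (GGAATG), RUNX (TGTGGT), C/EBP (TTGCNNAA) and NF-kB motifs were matched on both strands in the whole peak. Scripts ran in Python 3.11.15 (pandas 2.3.3, numpy 2.4.6, scipy 1.17.1, pysam 0.24.0). Tested on simulated data, they found each of 1500 overlaps planted in 5000 peaks and each of 600 motifs planted in 2000 windows, and bedtools 2.31.1 gave the same 7925 overlapped siCTL peaks. Plots were drawn with matplotlib 3.10.9.

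No test across conditions was possible with 1 library each. Shares have Wilson, counts exact Poisson and ratios Clopper-Pearson intervals at 95%. Peaks are not replicates and neighbouring peaks are not independent. The depth behind each list is unknown, so its precision could not be given. The members, gene lists and alternatives were chosen with earlier results of these data known. Named peaks were those of 250 bp and over, the shared ones and the nearest to each TSS. Named pathway genes were those with a peak of 250 bp and over. The planned sequences were those of the widest peak where it holds an AP-1 motif, at PLAU, PLAUR and MMP14. The other sequences printed, among them those at TIMP2, were chosen after their values were seen. Other peaks named were picked after their values were seen. The values of 1 pathway gene and the sequence of 1 site are not reported here. Alternatives were minimum widths of 150 and 250 bp, windows of 50 and 250 kb, the representative TSS, and any base in the window. Others were merging within 500 bp, overlap of 50% and sharing within 200 bp. The last were motifs in 200 bp centred on the peak whatever its width, TGANTCA, and leaving out the PLAU locus.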

Additional observations from a re-analysis of the deposited data

How the results depend on the processing

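Of 52 values recomputed under the alternatives, 42 stayed within the interval of the reported value and 10 moved outside it. With peaks of at least 150 bp, the shared share was 57.9% in siCTL and 50% in siFra-1, and the AP-1 share was 42.1% and 50%. With peaks of at least 250 bp, the shared shares were 90.9% and 83.3%, the AP-1 shares 63.6% and 75%, and the peak number ratio 1.09. Without the PLAU locus, the AP-1 share of siFra-1 peaks was 7.69%. The width filters keep fewer and wider peaks by construction. The peak number ratio ranged from 0.611 with windows of 250 kb to 0.841 with windows of 50 kb over the alternatives without a width filter, and its interval excluded 1 with windows of 250 kb (0.471 to 0.790). That interval included the 0.474 of all peaks, as did the one without the PLAU locus (0.684, 0.443 to 1.05). With windows of 50 kb, the representative TSS or any base in the window, the interval excluded 0.474. It also did so with merging, for which the ratio of all peaks was not recomputed. The ratio of wide peaks was 0.857 when peaks within 500 bp were merged, so its side of 1 is not settled. No paired analysis was possible because each condition has 1 library. Depth, peak height and the spread between replicates are unknown, absence from a list is not absence of signal, and a window of 100 kb assigns peaks by distance only.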
